A study of Rattus norvegicus with 4 samples.

Results

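The livers of 2 rats that had inhaled an anesthetic for 6 hours were compared directly, 1 after desflurane and 1 after sevoflurane, to show which genes were expressed at different levels under the 2 agents at the end of anesthesia. Genes were included when the TPM value, a measure of transcript abundance adjusted for gene length and library size, was higher than 2 in at least 1 of these 2 libraries. This was the case for 9829 of 16992 genes. For each gene, 1 was added to both TPM values and the log2 ratio of desflurane to sevoflurane was calculated, so that a positive difference denotes a higher value with desflurane. Adding 1 understates the differences of genes with low values. The same difference was calculated between the 2 control livers and is given, as a difference or as the TPM values of the controls, beside the genes and lists the results turn on.

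All 4 animals were male Wistar rats, 6 weeks old when purchased. They had no food or water for 2 hours beforehand and breathed the agent in 50% oxygen (total flow, 3 L/min), with the left lateral lobe of the liver taken at about 3 PM. The agents were given as 4.5% sevoflurane or 6.0% desflurane, and whether these concentrations have the same anesthetic strength is not stated in the sources used here. The control of each agent was a rat killed as soon as it lost consciousness, after less than 1 minute of the same agent. Each condition had 1 rat and 1 library. The sequenced differences therefore have no replicate check, and no tests were made. In these libraries, the difference between the controls is the only measure of how much 2 livers differ without 6 hours of anesthesia. By qPCR in 3 rats per condition, the study compared each agent with its own control, not the agents with each other. It reported *Cyp2b1*, *Por*, and *Alas1* as higher and *Irf1* and *Mx2* as lower with both agents. *Ccl6* and *Il33* were reported as lower with sevoflurane only.

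Sevoflurane and desflurane are volatile ethers that carry fluorine atoms. Sevoflurane is a fluoromethyl ether built on an isopropyl group, whereas desflurane is a methyl ethyl ether. A small part of inhaled sevoflurane is oxidized in the liver, mainly by the cytochrome P450 enzyme CYP2E1, whereas desflurane is hardly metabolized. The liver also adjusts its transcripts to fasting, amino acid supply, circulating hormones, and the time of day, and its RNA includes that of resident macrophages, endothelial cells, and blood cells.

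By the ratio of coverage to FPKM, the libraries corresponded to 4.47 Gb of aligned sequence after sevoflurane and 5.13 Gb after desflurane, and to 4.59 and 5.40 Gb in their controls. All 15 hepatocyte marker genes were above the TPM limit after 6 hours, and albumin (*Alb*) accounted for 79110 TPM with sevoflurane and 92912 TPM with desflurane. The sevoflurane control stood apart from the other libraries by transcripts of pancreatic acinar cells, with 8.94 TPM for *Ctrb1*, 6.58 TPM for *Prss1*, and 3.45 TPM for *Pnlip*. These 3 genes were at 0 in the other 3 libraries. *Cpb1* and *RGD1562844* were the members of the acinar list past the 2-fold limit used below, at 0.325 and 0 TPM with sevoflurane and 2.59 and 6.66 TPM with desflurane. Their controls differed by -1.95 and 1.27. *RGD1562844* was thus higher in the desflurane control (12.9 TPM) than in the sevoflurane control (4.77 TPM), unlike *Ctrb1*, *Prss1*, and *Pnlip*. The 27 acinar marker genes summed to 262 TPM in the sevoflurane control and to between 110 and 178 TPM in the others, most of it from *Spink1*, which the liver also expresses.

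After 6 hours, 143 genes (1.45% of those tested) were more than 2-fold higher with desflurane and 77 genes (0.783%) were more than 2-fold lower. Between the controls, 73 genes (0.748% of 9756 genes tested) were higher in the desflurane control and 77 genes (0.789%) were lower. The 6 hour livers thus differed past the limit in 143 genes against 73 in the higher direction and in 77 genes against 77 in the lower direction. The differences of all tested genes had a standard deviation across genes of 0.38 after 6 hours and 0.32 between the controls, and 90.5% and 94.7% of genes were within 1.5-fold, respectively. The median difference after 6 hours was 0.06. FPKM values differ from TPM by nearly 1 constant per library, and with them the difference of a gene, before 1 is added, is lower by 0.20. With FPKM, the median was -0.14, and 38 genes were then higher and 77 lower with desflurane. The share of genes that were higher among all genes past the limit was 65% with TPM and 33.0% with FPKM. After 6 hours, FPKM values were 0.378 (sevoflurane) and 0.329 (desflurane) times the TPM values. The limit of 2 and the added 1 are therefore stricter with FPKM. The balance between the 2 directions thus depends on the scale, and the shift of 0.20 and the stricter limits were not separated.

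**Figure D1:**
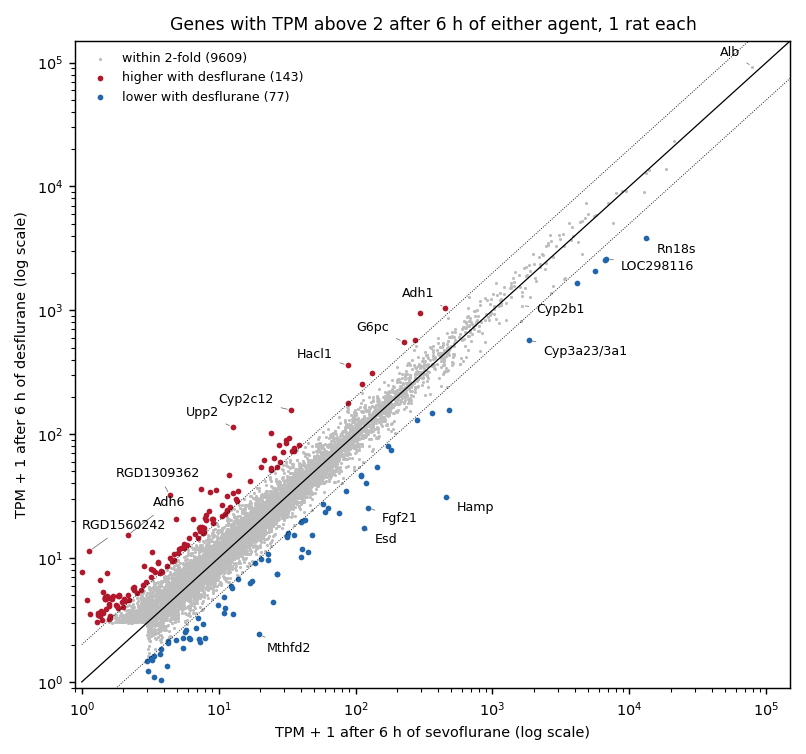
TPM values after 6 hours of sevoflurane (horizontal axis) and desflurane (vertical axis), both as TPM + 1 on log scales, for the 9829 tested genes. The solid line marks equal values, the dotted lines mark 2-fold differences, red points are the 143 genes higher with desflurane, and blue points are the 77 genes lower with desflurane, of which *Hamp* lies farthest from the line.

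In most of the genes past the limit after 6 hours, the controls differed by less than 2-fold. Among the 143 genes that were higher with desflurane, the controls differed by less than 2-fold in 121, by more than 2-fold in the same direction in 11 (7.69%), and by more than 2-fold in the opposite direction in 11. Among the 77 genes that were lower, these numbers were 64, 1 (1.30%), and 12 (15.6%). Of all genes tested between the controls, 0.748% were higher and 0.789% lower past the limit. Genes past the limit after 6 hours thus also differed between the controls more often than genes in general. Seen from the controls, 11 of the 73 genes higher in the desflurane control (15.1%) were also higher after 6 hours. After the control difference was subtracted, 106 genes (1.08% of those tested) remained more than 2-fold higher with desflurane and 56 genes (0.57%) more than 2-fold lower.

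The place of the 6 hour libraries among all 4 is given as a description, because the genes were selected by the difference between these libraries. In 117 of the 143 higher genes the sevoflurane library had the lowest value of all 4 libraries, and in 93 the desflurane library had the highest, with 68 genes meeting both conditions. Of the 77 lower genes, 60 had their highest value with sevoflurane and 58 their lowest value with desflurane, with 44 genes meeting both. The 15 protocadherin alpha genes described below count as 15 of the 143 genes, and genes whose annotated spans overlap on 1 strand reduce the 143 genes to 128 loci and the 77 genes to 74. Over all tested genes, the sevoflurane library was the highest of the 4 in 28.7% and the lowest in 26.4%. The desflurane library was the highest in 38.9% and the lowest in 14.9%. By any amount, 58.6% of all tested genes were higher and 41.4% lower with desflurane, and 1.45% and 0.783% were so past the limit. These shares are the background for such counts in the gene lists below.

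**Figure D2:**
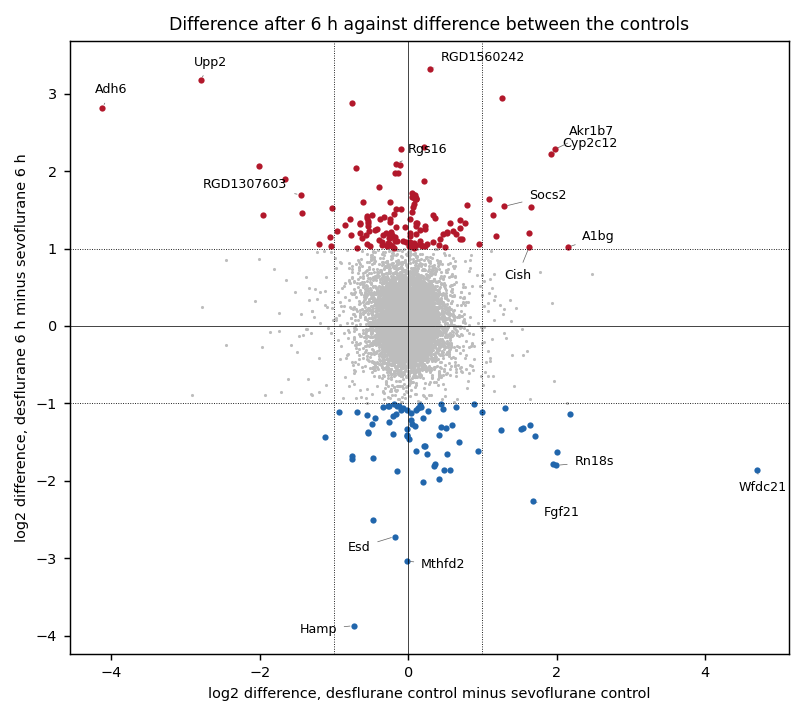
Log2 difference between the agents after 6 hours (vertical axis) against the log2 difference between their controls (horizontal axis) for the tested genes, with dotted lines at 2-fold. Red and blue points are genes past the limit after 6 hours. Most lie between the vertical dotted lines, *Cyp2c12* and *Akr1b7* were also higher in the desflurane control, and *Upp2*, *Adh6*, and *Wfdc21* differed in opposite directions.

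The largest difference of all was that of *Hamp* (rn6 chr1:89368021-89369960), which encodes the iron hormone hepcidin. Its TPM value was 458 with sevoflurane and 30.4 with desflurane, a 15.1-fold difference, against 1487 and 893 in the respective controls. Both 6 hour livers were thus below both controls, and the difference between the agents (-3.87) was larger than that between the controls (-0.74). Of 39 genes of iron handling and the acute phase, all tested, *Hamp* was the only one past the limit, and the median was 0.24 (-0.02 between the controls). *Lcn2*, an iron-binding protein, was just below the limit (-0.99, and 2.13 between the controls) and past it with median-of-ratios scaling (-1.03), and *C1s*, a complement protease, had the largest difference in the other direction (0.80). *Tfr2*, *Hjv*, and *Bmp6*, which act upstream of hepcidin, showed differences of 0.26, 0.53, and -0.10. *Id1*, a target of the same pathway, showed a difference of -0.26.

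*Noct*, a deadenylase with a daily rhythm in the liver, was at 23.8 TPM after sevoflurane and 3.39 TPM after desflurane, a difference of -2.50. Its values were 3.52 and 2.24 TPM in the controls, so that sevoflurane alone stood apart. *Esd*, a serine hydrolase, was listed at 114 TPM with sevoflurane and 16.4 TPM with desflurane. However, its average coverage was 38.2 and 27.6, and a difference of -0.44 results from coverage in place of -2.72 from TPM. Of the 220 genes past the limit, 216 were also past it when coverage was used, and *Esd*, *Pde4d*, *Ptprc*, and *Tank* were not. *Pde4d* changed sign, from -1.79 with TPM to 0.35 with coverage.

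Among the most abundant genes that were lower with desflurane, *LOC298116* and *LOC259246*, members of the alpha-2u globulin (major urinary protein) family, had 6767 and 6659 TPM with sevoflurane and 2607 and 2568 TPM with desflurane. They differed by -0.55 in the same direction between the controls. Their annotated spans overlap on chromosome 5 and their values cannot be separated. The ribosomal RNA genes *Rn18s*, *Rn45s*, and *Rn28s*, which are nested in a single locus, were also lower with desflurane, by 1.80, 1.42, and 1.33 on the log2 scale. *Rn18s* was at 13226 TPM after sevoflurane and 3800 TPM after desflurane, but at 5139 and 20510 TPM in the controls. The ribosomal RNA genes took 2.94% of the annotated TPM with sevoflurane and 0.979% with desflurane. The library preparation removes ribosomal RNA, and the part of unequal removal in these values was not tested.

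The genes of amino acid stress formed the largest group that was lower with desflurane. ATF4 is a transcription factor whose translation increases when amino acids are scarce or the endoplasmic reticulum is stressed, and its targets encode enzymes of serine, asparagine, and proline synthesis, amino acid transporters, aminoacyl-tRNA synthetases, and the hormone FGF21. Of 39 ATF4 target genes tested, 14 were more than 2-fold lower with desflurane and none was more than 2-fold higher, against 0.783% and 1.45% of all genes. The median difference was -0.61 after 6 hours and 0.16 between the controls. In total, 35 of the 39 genes were lower with desflurane (41.4% of all tested genes were lower by any amount), and 31 had their highest value of the 4 libraries with sevoflurane.

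*Mthfd2*, a mitochondrial enzyme of folate metabolism, was at 18.8 TPM with sevoflurane and 1.42 TPM with desflurane, with 3.53 and 3.46 TPM in the controls. *Fgf21* reached 121 TPM with sevoflurane and 24.5 TPM with desflurane, but its controls also differed, at 12.2 and 41.3 TPM. The desflurane value of *Fgf21* thus lay between the 2 controls, and the sevoflurane value lay above both. The enzymes of serine synthesis followed the same order. *Phgdh* was at 44.1 TPM with sevoflurane and 10.2 TPM with desflurane, *Psat1* at 39.2 and 9.21 TPM, and *Psph* at 9.90 and 3.86 TPM. *Asns*, which makes asparagine, was at 47.2 and 14.4 TPM, whereas its controls were at 12.4 and 18.3 TPM. For all 4 enzymes, the desflurane library was within 1.5-fold of at least 1 control, and the sevoflurane library was the highest of the 4.

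Among the amino acid transporters, *Slc3a2*, the heavy chain shared by several of them, was at 172 TPM with sevoflurane and 78.8 TPM with desflurane, close to its controls (77.8 and 80.0 TPM). *Slc7a11*, which encodes its cystine-importing partner, was at 2.81 and 0.038 TPM. *Slc7a1*, a carrier of cationic amino acids that works without this chain, was at 4.50 and 0.88 TPM. *Slc7a5*, which carries large neutral amino acids, showed a difference of -0.90, below the limit. The remaining members past the limit were *Adm2*, *Chac1*, *Ddit4*, *Aldh18a1*, and *Cars*, with differences between -1.87 and -1.03. *Atf4* and *Atf5*, which encode the factor and a related factor, were at 172 and 809 TPM with sevoflurane and at 109 and 465 TPM with desflurane, differences of -0.66 and -0.80. The exceptions were *Cth*, an enzyme of cysteine synthesis, which was higher with desflurane (0.59), and *Sesn2*, *Ppp1r15a*, and *Pycr1*, with differences between 0.15 and 0.27. *Inhbe* and *Tsku*, which encode proteins secreted by the liver and are not in the list, are added after their values were seen. *Inhbe* was at 279 and 130 TPM, and *Tsku* was at 363 and 146 TPM.

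Genes of this group can carry a C/EBP-ATF response element, and the core of this element (TGATGNAA, or TTNCATCA on the other strand) was searched for in the 250 bases before each start site in the RefSeq promoter windows of the GRCr8 build. A window was matched for 34 of the 39 genes, and 8 of these (23.5%) held the core. The core was present in 3.40% of all 33469 windows and, counted per gene, in 1.9% of the tested genes with a window. Among the genes past the limit, 3 of 12 with a window held it, and among the others 5 of 22. *Fgf21* and *Chac1*, the members with the core that differed most between the agents, are shown with the core in capitals, read 5′ to 3′ in the direction of the gene. The windows are chr1:105221377-105221626 on the minus strand and chr3:126795881-126796130 on the plus strand, and the cores begin 143 and 167 bases before the start.
Fgf21: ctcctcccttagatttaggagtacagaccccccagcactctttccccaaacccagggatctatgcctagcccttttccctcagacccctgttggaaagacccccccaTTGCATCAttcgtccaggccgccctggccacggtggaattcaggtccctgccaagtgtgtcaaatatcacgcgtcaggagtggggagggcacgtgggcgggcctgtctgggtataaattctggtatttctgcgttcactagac
Chac1: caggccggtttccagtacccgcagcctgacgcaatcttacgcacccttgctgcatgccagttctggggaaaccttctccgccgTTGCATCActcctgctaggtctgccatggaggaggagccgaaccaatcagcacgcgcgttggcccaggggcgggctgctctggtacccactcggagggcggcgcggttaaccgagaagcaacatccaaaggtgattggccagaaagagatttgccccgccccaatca
The matches describe the sequence only, and binding of ATF4 was not measured.

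Heat shock genes were lower with desflurane as well. Most genes of this list encode chaperones or their partners, many of them induced by protein damage through the factor HSF1. The list also holds *Cirbp* and *Rbm3*, which are not chaperones. Of 20 genes tested, 6 were more than 2-fold lower and 1, *Cirbp*, was more than 2-fold higher, against 0.783% and 1.45% of all genes. The median difference was -0.75 after 6 hours and 0.05 between the controls. In total, 17 of 20 genes were lower with desflurane and 16 had their highest value with sevoflurane, against 41.4% and 28.7% of all tested genes. *Hspa8*, the most abundant of the 6, was at 482 TPM with sevoflurane and 156 TPM with desflurane, against 237 and 255 TPM in the controls. Sevoflurane was thus above and desflurane below both controls. The same order was present for *Hsph1* (39.3 and 10.8 TPM, with controls at 21.1 and 27.3 TPM) and for *Hsp90aa1* (117 and 39.5 TPM, with controls at 68.1 and 80.1 TPM). *Fkbp4*, a cochaperone of steroid receptors, was at 62.4 and 24.4 TPM, *Chordc1* at 21.9 and 9.75 TPM, and *Dnajb1* at 30.5 and 13.8 TPM. *Hsp90ab1*, at 422 and 243 TPM with controls at 320 and 341 TPM, showed a difference of -0.79.

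*Cirbp* and *Rbm3*, which encode RNA-binding proteins known to be induced by mild cold, went in the other direction. *Cirbp* was at 12.6 TPM with sevoflurane, 28.0 TPM with desflurane, and 14.8 and 14.5 TPM in the controls. *Rbm3* showed a difference of 0.58. According to the methods of the study, body temperature was kept in a narrow range in anesthetized rats, and no temperature is given for the controls. The temperatures of the single rats were not analysed here. *Cirbp* was past the limit with TPM and below it with FPKM (0.82).

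A heat shock element (GAANNTTCNNGAA, or TTCNNGAANNTTC on the other strand) was present within 250 bases before the start in 4 of 16 heat shock genes with a window. The share was 0.663% of all windows and 0.342% of tested genes with a window. It was found in 2 of the 10 members with a window that were not past the limit. It was also found in 2 of the 6 members past the limit that had a window, *Hspa8* and *Hsph1*, which are shown with the element in capitals. The windows are chr8:50080264-50080513 and chr12:10427118-10427367 of GRCr8, both on the plus strand.
Hspa8: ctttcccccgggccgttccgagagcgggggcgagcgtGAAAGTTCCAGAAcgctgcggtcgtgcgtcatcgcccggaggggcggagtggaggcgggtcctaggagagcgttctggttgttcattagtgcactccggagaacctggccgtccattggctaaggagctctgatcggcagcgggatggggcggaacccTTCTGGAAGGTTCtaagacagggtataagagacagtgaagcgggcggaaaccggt
Hsph1: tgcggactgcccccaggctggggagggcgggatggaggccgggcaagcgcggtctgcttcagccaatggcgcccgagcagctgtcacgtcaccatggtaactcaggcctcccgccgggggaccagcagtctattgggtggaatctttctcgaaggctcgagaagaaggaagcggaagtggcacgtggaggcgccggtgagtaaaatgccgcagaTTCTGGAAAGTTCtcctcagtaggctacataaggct
*Hspa8* held 2 elements and *Hsph1* held 1, and no statement on HSF1 binding follows from these letters.

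**Figure D3:**
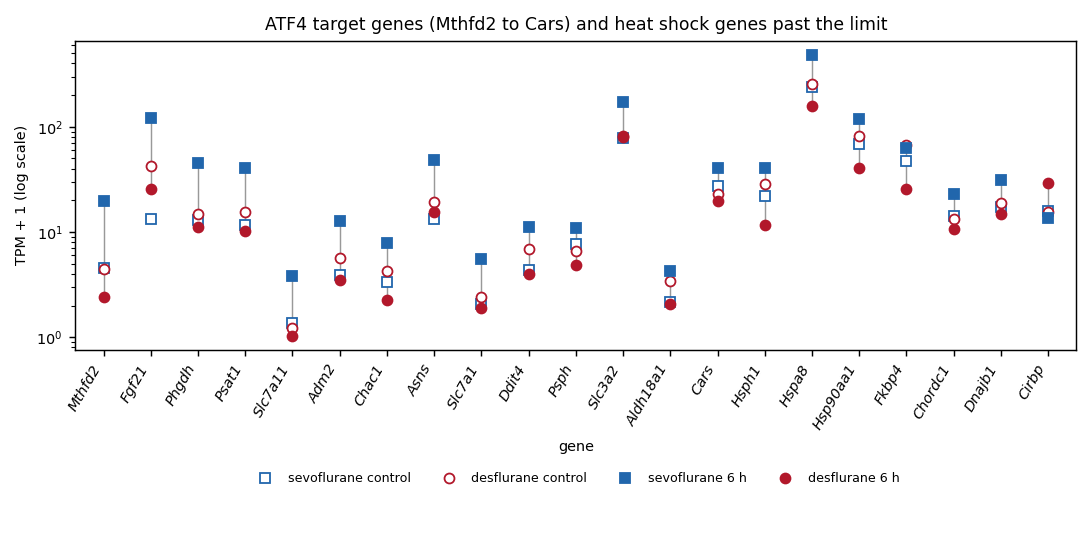
TPM + 1 (log scale) in the 4 libraries for the 14 ATF4 target genes and the 7 heat shock genes past the limit, with squares for sevoflurane, circles for desflurane, open symbols for the controls, and filled symbols for 6 hours. In all genes but *Cirbp* the filled square lies above the filled circle, and for *Hspa8*, *Hsph1*, and *Hsp90aa1* the controls lie between them.

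Further groups were lower with desflurane by smaller amounts. Of all tested genes, 41.4% were lower by any amount, 0.783% were lower past the limit, and 28.7% were highest with sevoflurane. Among 37 proteasome subunit genes tested, none was past the limit in either direction, but 34 were lower with desflurane, 29 had their highest value with sevoflurane, and the median was -0.28 (-0.12 between the controls). Among 25 target genes of NRF2, a factor that responds to oxidants, 20 were lower with desflurane and the median was -0.26. Between the controls, 12 of 24 were lower. *Slc7a11*, which is also an ATF4 target, and *Akr1b8* were past the limit, the latter at 2.04 and 0.22 TPM with controls at 0.348 and 2.92 TPM. Among 32 cell cycle genes, 4 were past the limit and all were lower with desflurane. These were *Ccnd1* (cyclin D1, 75.2 and 22.3 TPM, with controls at 66.6 and 39.1 TPM) and *Mcm6*, *Mcm2*, and *Mcm5*, subunits of the helicase that opens DNA for replication, at between 4.72 and 8.92 TPM with sevoflurane and between 1.24 and 3.20 TPM with desflurane. The controls of *Ccnd1*, *Mcm5*, and *Mcm2* differed in the same direction, by -0.75, -0.45, and -0.26, whereas those of *Mcm6* differed by 0.01. In the whole list, 22 of 32 genes were lower with desflurane, with a median of -0.31 after 6 hours and of 0.52 between the controls. *Ccna2*, which encodes cyclin A2, had the largest difference in the other direction (0.31).

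Genes of drug metabolism are the classical response of the liver to anesthetics and other foreign compounds, through the receptors CAR and PXR. In the direct comparison, *Cyp3a23/3a1* was at 1836 TPM with sevoflurane and 571 TPM with desflurane, with controls at 451 and 265 TPM, a difference of -1.68. Its annotated span overlaps in part with that of its paralog *Cyp3a2* (2437 and 2172 TPM) on the same strand, so their values are uncertain, and the difference was -1.18 from coverage. *Cyp2b1* and *Cyp2b2*, a pair of genes so alike that their reads cannot be fully separated, were at 1632 and 1893 TPM with sevoflurane and at 1090 and 1271 TPM with desflurane, whereas the *Cyp2b1* controls were at 17.8 and 16.1 TPM. The difference between the agents (-0.58 and -0.57) was thus small beside that of either agent from its control and was below the limit. The cofactor genes *Por* (642 and 415 TPM, difference -0.63) and *Alas1* (433 and 304 TPM, difference -0.51) showed the same order. Of the 31 genes in the CAR and PXR list, 18 were lower with desflurane, with a median of -0.13. Between the controls, 17 were lower, with a median of -0.10. *Akr1b7* and *Cyp3a9* were past the limit in the other direction, and *Nr1i3*, which encodes CAR, was at 22.7 TPM with sevoflurane and 42.1 TPM with desflurane (0.86).

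Among the other P450 genes, 3 of 25 were past the limit and all were higher with desflurane. *Cyp2j3* was at 37.4 and 80.8 TPM and *Cyp2c24* at 1.39 and 4.82 TPM, and *Cyp2c12* is described below. Of 5 targets of the aryl hydrocarbon receptor, none was past the limit, but *Ahr* itself was close to it (0.99). *Cyp2e1*, which oxidizes sevoflurane, was at 2456 and 3299 TPM, a difference of 0.43 that was opposite to the difference of -0.72 between the controls. The phase II enzymes showed a median of -0.03, with *Gstt3* and *Fmo2* past the limit and higher with desflurane, and *Sult1e1*, the estrogen sulfotransferase, lower at 1619 and 821 TPM (-0.98).

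In the opposite direction, the largest difference was that of *RGD1560242*, an uncharacterized gene that was at 0.138 TPM with sevoflurane and 10.4 TPM with desflurane. Its controls were at 16.6 and 20.6 TPM, so the sevoflurane library stood apart from the other 3. *RGD1309362*, an uncharacterized gene placed in the interferon list, was at 3.39 and 31.3 TPM after 6 hours and 119 and 69.8 TPM in the controls. Both 6 hour libraries were thus below both controls, and the desflurane library differed from its own control by -1.13. The sevoflurane library stood apart from the other 3 for *Cfap126*, a cilium gene (7.65 and 32.9 TPM, with 53.6 and 47.1 TPM in the controls). It also did for *Chka*, which encodes choline kinase (8.63 and 34.3 TPM, with 31.1 and 36.2 TPM in the controls). The control difference of each of these 4 genes was below the limit, at between -0.76 and 0.30. *Chka* and *Cfap126* had their lowest value of the 4 libraries with sevoflurane, as 117 of the 143 genes did.

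For other genes it was the desflurane library that stood apart. *Rgs16*, which turns off G protein signaling, was at 3.84 TPM with sevoflurane and 19.7 TPM with desflurane, with controls at 2.60 and 2.23 TPM. *Hacl1*, a peroxisomal enzyme of fatty acid breakdown, was at 86.5 and 358 TPM, with controls at 101 and 61.3 TPM. *Rnf125*, a ubiquitin ligase, was at 23.3 and 101 TPM, with controls at 56.0 and 51.9 TPM, and *Acsm3*, an acyl-CoA synthetase, was at 10.9 and 46.0 TPM, with controls at 25.7 and 23.2 TPM. In both of these genes, desflurane was above and sevoflurane below the controls. *Adcy10*, a soluble adenylyl cyclase, was at 2.24 and 10.2 TPM, with controls at 1.44 and 0.854 TPM. *Rgs16* is 1 of 24 immediate early genes tested, of which 20 were higher with desflurane (58.6% of all tested genes were higher by any amount) with a median of 0.63. *Rgs16*, *Egr1*, *Btg2*, and *Socs3* were past the limit in this direction and *Dusp1* in the other. *Egr1* was at 31.4 and 92.0 TPM, and *Dusp1* was at 58.4 and 22.4 TPM, and both had controls that differed more than 2-fold in the opposite direction.

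Other named genes past the limit were of mixed function. *Otub2*, a deubiquitinase, was at 25.9 TPM with sevoflurane and 6.38 TPM with desflurane, with controls at 11.6 and 16.7 TPM. *Slc1a4*, a transporter of neutral amino acids, was at 6.71 and 1.94 TPM, with controls at 4.29 and 3.57 TPM, and *Pdxp*, a phosphatase of vitamin B6, was at 6.22 and 1.22 TPM, with controls at 1.83 and 1.03 TPM. In the other direction, *Arrdc3*, an arrestin family gene, was at 86.8 and 178 TPM, and its controls were at 218 and 188 TPM. *Retsat*, a retinol saturase, was at 273 and 570 TPM, but at 281 and 546 TPM in the controls, so that both desflurane libraries were above both sevoflurane libraries. *Olr35*, an olfactory receptor gene that overlaps another on the same strand, was at 1.85 and 7.65 TPM, with controls at 3.91 and 2.21 TPM.

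Genes of fasting and glucose production differed in both directions. Of 25 genes tested, 5 were more than 2-fold higher with desflurane and 1 was more than 2-fold lower, and the median of 0.17 (-0.23 between the controls) changed sign with FPKM (-0.02). *G6pc*, the last enzyme of glucose release, was at 223 TPM with sevoflurane and 554 TPM with desflurane, against 206 and 114 TPM in the controls. *Ppargc1a*, a coactivator of gluconeogenesis genes, was at 5.08 and 13.5 TPM, with controls at 4.23 and 2.90 TPM. *Irs2*, an adaptor of the insulin receptor, was at 7.01 and 19.95 TPM, with controls at 10.1 and 8.34 TPM. *Angptl4* (34.4 and 71.7 TPM) and *Pdk4* (26.7 and 80.3 TPM) were also higher with desflurane, although the controls of *Pdk4* were at 40.8 and 71.4 TPM. *Pck1*, which catalyzes the first committed step of gluconeogenesis, was at nearly the same level with both agents (980 and 951 TPM), with controls at 1079 and 414 TPM. *Sds*, which breaks down serine, was the gene that was lower with desflurane, at 109 and 44.6 TPM, and *Tat*, which breaks down tyrosine, was below the limit at 464 and 241 TPM.

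Genes that are induced by insulin and feeding showed no common direction, with a median of 0.02 over 29 genes (0.35 between the controls). *Acss2* was past the limit and higher with desflurane. *Ppp1r3b*, a glycogen-targeting subunit of a phosphatase, was at 83.7 and 33.9 TPM, with controls at 95.4 and 144 TPM, so that desflurane stood apart. Of 40 genes of PPARA and fatty acid oxidation, 31 were higher with desflurane with a median of 0.13, which changed sign with FPKM (-0.02). The median between the controls was -0.11, and 27 of the 40 genes had their highest value with desflurane (38.9% of all tested genes did). *Pex11a* and *Slc22a5* were past the limit and higher, and *Cyp4a2* and *Fgf21* were past it and lower.

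The canalicular sterol exporter differed between the agents while bile acid synthesis genes were split. *Abcg8*, a subunit of this exporter, was at 7.02 TPM with sevoflurane and 21.1 TPM with desflurane, and its partner *Abcg5* was at 28.3 and 55.9 TPM, just below the limit (0.96). Their controls differed in the opposite direction, by -1.42 and -1.23. *Cyp8b1*, the sterol 12-alpha-hydroxylase, was at 130 and 310 TPM, with controls at 175 and 204 TPM, whereas *Cyp7a1*, the rate-limiting enzyme of bile acid synthesis, was at 194 and 101 TPM, with controls at 83.5 and 70.4 TPM. Of 24 genes of this list, 19 were higher with desflurane, and the median was 0.31 against -0.21 between the controls. Of 25 cholesterol synthesis genes, *Tm7sf2*, a sterol reductase, was past the limit (30.1 and 83.4 TPM), 19 were higher with desflurane, and the median was 0.26. With FPKM, the median of the cholesterol synthesis genes was 0.06.

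Of 16 alcohol and aldehyde dehydrogenase genes tested, 15 were higher with desflurane and 3 of these were past the limit, against 58.6% and 1.45% of all tested genes. Their median difference was 0.25. With FPKM, this median was 0.03. *Adh1*, the most abundant of the 3, was at 452 TPM with sevoflurane and 1048 TPM with desflurane, with controls at 952 and 810 TPM, so that sevoflurane stood apart. *Adh6* was at 1.17 and 14.3 TPM, but at 162 and 8.36 TPM in the controls, and the third was *Aldh3b1* at 0.501 and 2.90 TPM. Apolipoprotein A-II (*Apoa2*), a hepatocyte gene, was at 674 and 1282 TPM, with controls at 1644 and 1288 TPM, and showed the largest difference toward desflurane among the hepatocyte markers (0.93). *Upp2*, a uridine phosphorylase, had the largest difference toward desflurane among genes with TPM values above 2 in both libraries, at 11.6 and 113 TPM, with controls at 35.8 and 4.30 TPM.

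Most groups of immune genes were higher with desflurane. Of all tested genes, 58.6% were higher by any amount, 1.45% were higher past the limit, and 26.4% were lowest with sevoflurane. MHC class II molecules present peptides to T cells and are made in the liver by Kupffer cells, dendritic cells, and B cells. All 8 MHC class II genes tested were higher with desflurane and 4 were past the limit, with a median of 1.004. With FPKM, the median was 0.91 and 2 were past the limit. The sevoflurane library was the lowest of the 4 in all 8 genes, and the median between the controls was -0.69, in the opposite direction. *Cd74*, the invariant chain, was at 111 TPM with sevoflurane and 252 TPM with desflurane, with controls at 364 and 213 TPM. *RT1-Da* was at 34.4 and 77.0 TPM, *RT1-Ba* at 11.8 and 32.3 TPM, and *RT1-Db1* at 9.60 and 25.7 TPM. The desflurane values of these 4 genes were within 1.5-fold of the desflurane control. *Ciita*, which encodes the coactivator of these genes, was at 1.14 and 2.29 TPM, with controls at 4.26 and 2.11 TPM. In these bulk samples, fewer cells of a type and less RNA per cell cannot be told apart.

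The X box, a conserved element of MHC class II promoters, was searched for as CCTAGNAAC or GTTNCTAGG. It was found in 2 of 4 members past the limit, *Cd74* and *RT1-Da*, in 1.26% of all windows, and in 1.52% of tested genes with a window. Of the 2 members with a window that were not past the limit, 0 held it. The window of *RT1-Da* (GRCr8 chr20:4515165-4515414, plus strand) is shown because its match, in capitals, lies closest to the start, 86 bases before it.
RT1-Da: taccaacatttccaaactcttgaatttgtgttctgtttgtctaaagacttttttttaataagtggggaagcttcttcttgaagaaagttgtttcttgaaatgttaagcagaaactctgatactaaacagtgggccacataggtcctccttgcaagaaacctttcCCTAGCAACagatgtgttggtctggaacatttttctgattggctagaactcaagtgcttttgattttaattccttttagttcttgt
The match is a description of the reference sequence.

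Markers of the cells that carry these genes moved with them. Of 21 markers of Kupffer cells and macrophages, 19 were higher with desflurane and 19 had their lowest value with sevoflurane, against 58.6% and 26.4% of all tested genes. The summed level was 699 TPM with sevoflurane and 1044 TPM with desflurane (1154 and 912 TPM in the controls). *Marco*, a scavenger receptor, was at 12.7 and 33.5 TPM, *Cd5l* at 33.4 and 72.5 TPM, and *Csf1r*, the receptor for the macrophage growth factor CSF1, at 25.6 and 53.7 TPM, and these 3 were past the limit. *Clec4f*, specific to Kupffer cells, was at 76.5 and 123 TPM, and *C1qc*, the most abundant marker, was at 124 and 165 TPM. *Lyz2* went in the other direction (-0.46). The median of the Kupffer cell and macrophage markers was 0.57 with TPM and 0.35 with FPKM, and 1 marker was past the limit with FPKM. All 14 genes expressed by leukocytes in general were higher with desflurane, with a median of 0.52 (-0.39 between the controls), but *Ptprc* (CD45), the gene past the limit, had a difference of 1.22 with TPM and 0.57 with coverage. All 7 tested markers of T and NK cells were higher (median 0.49). Erythroid genes, as a sign of blood in the tissue, went in the other direction, with all 8 genes lower with desflurane, a median of -0.52, and a summed level of 94.3 and 56.5 TPM. All 8 were also lower in the desflurane control, with a median of -0.46 and sums of 133 and 98.1 TPM. Neutrophil markers were at or below 2 TPM with both agents.

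The MHC class I and immunoproteasome genes were higher with desflurane in 27 of 28 genes, with a median of 0.38 (-0.17 between the controls) and with 24 genes at their lowest with sevoflurane. *B2m*, the shared light chain, was at 637 and 809 TPM, and *Psmb8*, an immunoproteasome subunit, was at 17.1 and 32.2 TPM. *RT1-T24-3* was past the limit, and RT1 class I genes share reads among themselves. Of 50 interferon response genes, 3 were past the limit and higher with desflurane, and these were *RGD1309362*, *MGC108823*, and *Ifi47* (6.87 and 16.4 TPM), whereas *Mx2* (12.4 and 9.38 TPM), *Oas1a*, and *Ifit2* were lower with desflurane. The interferon median of 0.14 (-0.30 between the controls) changed sign with FPKM (-0.05). Of the 50 genes, 32 had their lowest value with sevoflurane and 12 with desflurane, against 26.4% and 14.9% of all tested genes. *Irf1*, a factor induced by interferon, was at 4.71 and 8.65 TPM, both below the controls (23.8 and 19.1 TPM). Among 30 chemokine, cytokine, and receptor genes, 26 were higher with desflurane with a median of 0.57 (-0.33 between the controls). *Il15* (2.19 and 7.17 TPM) and *Csf1r* were past the limit, and *Ccl6* (159 and 264 TPM) and *Il33* (28.5 and 50.5 TPM) were below it. With FPKM, the median of this list was 0.37 and 0 genes were past the limit.

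**Figure D4:**
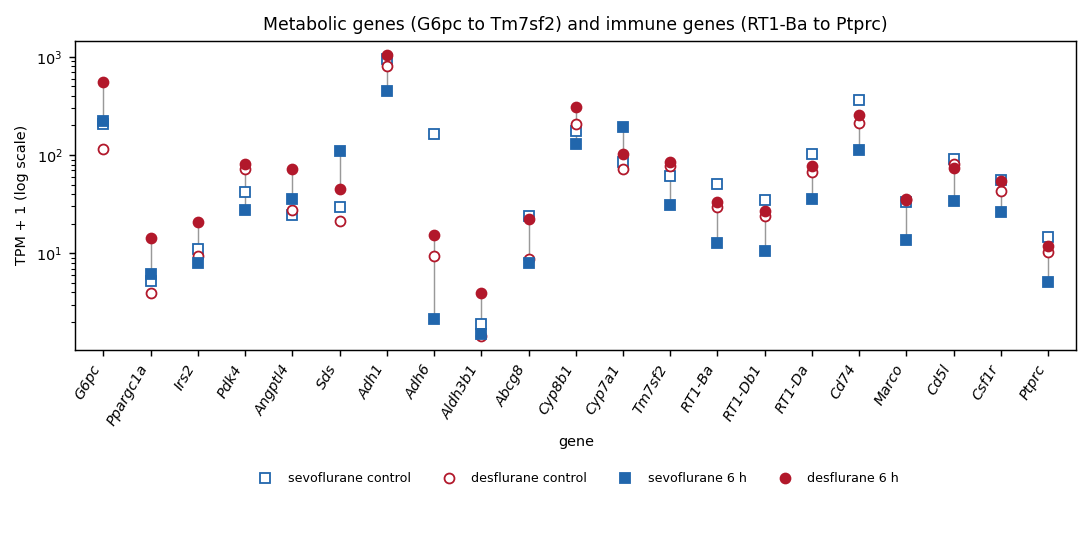
TPM + 1 (log scale) in the 4 libraries for 13 metabolic and 8 immune genes, with squares for sevoflurane, circles for desflurane, open symbols for the controls, and filled symbols for 6 hours. The filled circle lies above the filled square except in *Sds* and *Cyp7a1*, and for the immune genes the filled square is the lowest of the 4 symbols.

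All 15 protocadherin alpha genes were more than 2-fold higher with desflurane, with values of 0.473 to 0.693 TPM with sevoflurane and 3.69 to 6.60 TPM with desflurane. In the controls, they were between 3.20 and 6.68 TPM, so that sevoflurane stood apart in each gene. These neuronal adhesion molecules are encoded by alternative first exons joined to shared last exons on chromosome 18, and in the files all 15 spans end within 1 base of each other (rn6 chr18, near 30215896, plus strand). The 15 genes are therefore 1 locus rather than 15 measurements. The median difference was 1.67, or 2.68 when 0.1 instead of 1 was added. With FPKM, *Pcdhac2* had a difference of 1.40, and the other 14 were at or below 2 in both libraries.

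Some of the differences after 6 hours were also present between the controls. Growth hormone acts on the liver through STAT5 and sets sex-dependent genes, and 6 of 23 genes of this list were past the limit and higher with desflurane after 6 hours. However, 7 were higher and 4 were lower past the limit between the controls. *Cyp2c12*, which is typical of female rats, was at 32.6 TPM with sevoflurane and 156 TPM with desflurane, and at 49.996 and 193 TPM in the controls. *Socs2*, a feedback inhibitor of growth hormone, was at 20.3 and 61.2 TPM, with controls at 38.8 and 96.4 TPM, and *Trim24* was at 5.55 and 19.5 TPM, with controls at 4.09 and 9.86 TPM. *Cish* and *A1bg* differed by 1.02 after 6 hours and by 1.63 and 2.15 between the controls. *Cyp2c11*, the male counterpart, was at 1245 and 1146 TPM, although its controls were at 1457 and 544 TPM. Outside this list, *Akr1b7* (2.28 after 6 hours and 1.97 between the controls), *Gstt3* (1.54 and 1.66), and the clock gene *Arntl* (1.16 and 1.19) also had similar differences in both comparisons. With 1 rat per condition, a difference between the agents and a difference between the rats cannot be told apart for any gene. For the genes of this paragraph, such a difference was seen without 6 hours of anesthesia as well.

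**Figure D5:**
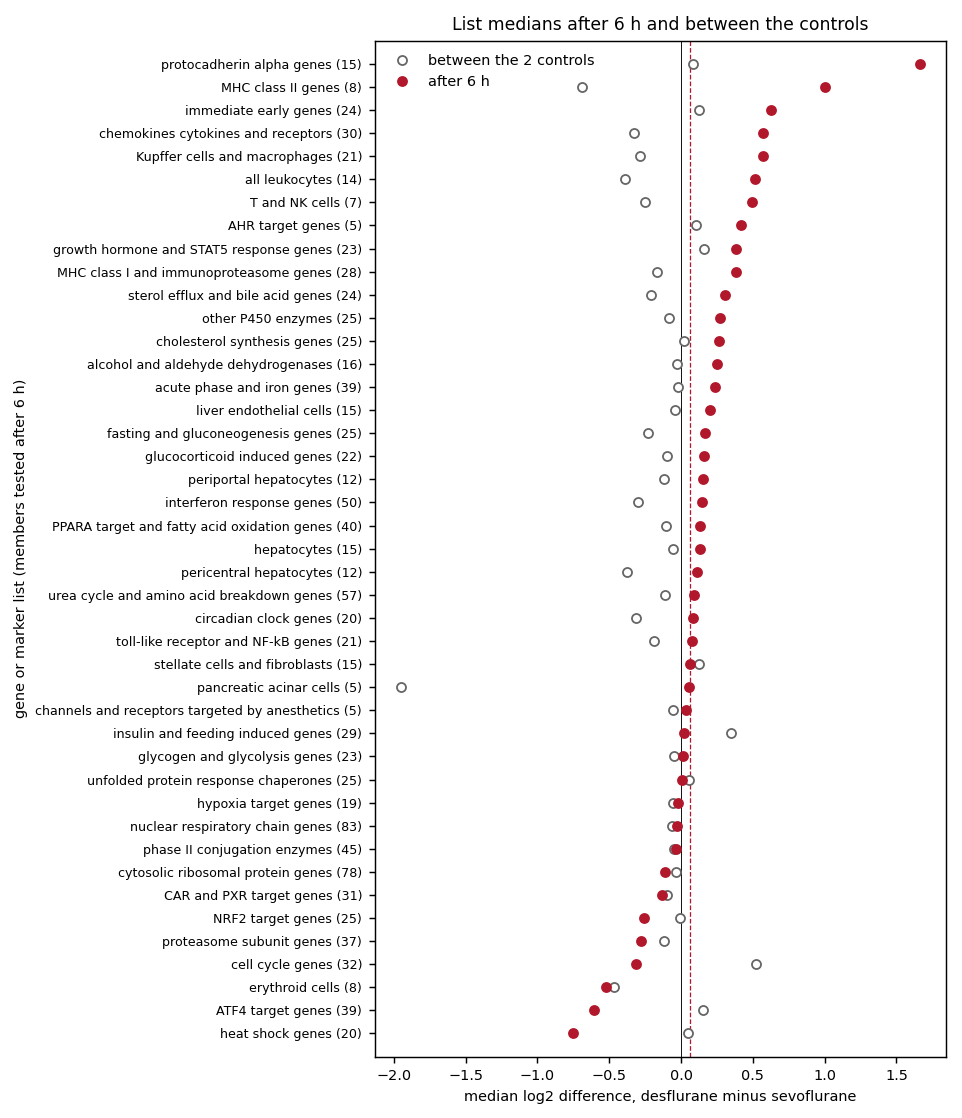
Median log2 difference between desflurane and sevoflurane for the gene and marker lists with at least 5 tested members, after 6 hours (filled) and between the controls (open), with the number of members tested in parentheses. The dashed line is the median of all tested genes (0.06). Heat shock and ATF4 target genes lie farthest to the left and protocadherin alpha and MHC class II genes farthest to the right, and for MHC class II and cell cycle genes the controls lie on the other side of 0.

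Several groups had few or no genes past the limit. The 83 genes of the respiratory chain had a median of -0.03 and none was past the limit. None of the 78 cytosolic ribosomal protein genes was past the limit either, but 60 were lower with desflurane and 50 had their highest value with sevoflurane, with a median of -0.11 (-0.04 between the controls, where 47 were lower). The 25 chaperones of the unfolded protein response of the endoplasmic reticulum had a median of 0.01 and none past the limit, in contrast to the heat shock genes. *Creld2* at -0.72 and *Xbp1* at 0.63 were the extremes. Glycolysis and glycogen genes (0.01), hypoxia target genes (-0.02), and toll-like receptor and NF-kB genes (0.07) were similar, with *Ppp1r3b* and *Ddit4* as the members past the limit. Of 57 genes of the urea cycle and amino acid breakdown, *Upp2* and *Sds* were past the limit and the median was 0.09. Of 20 clock genes, *Npas2* and *Arntl* were higher and *Noct* lower past the limit, whereas *Dbp* (175 and 164 TPM) and *Nr1d2* (0.06) were nearly the same. Of 36 channels and receptors that anesthetics act on, 5 were above the TPM limit and none was past the 2-fold limit. *Gapdh*, often used as a reference gene, was at 503 TPM with sevoflurane and 380 TPM with desflurane (-0.40), with controls at 407 and 373 TPM.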

How the data were processed

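Liver RNA of 4 rats was sequenced, 1 library per condition. The authors mapped reads to rn6 with HISAT2, sorted them with SAMtools, and quantified genes with StringTie and the refGene annotation. The labels name a TruSeq Stranded Total RNA Gold kit and the study's methods an Illumina Stranded Total RNA Prep with Ribo-Zero Plus kit, and whether strand was used in counting is not given in the sources used here. The deposited values were TPM as signal, FPKM, and average coverage per gene, each made by the authors with StringTie without read counts, so that aligned bases were estimated here from the ratio of coverage to FPKM. The annotated TPM values do not sum to a constant.

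Genes assembled without an annotation and spans of 200 bases or less were removed, and TPM values were summed per gene. Genes with TPM above 2 in either library were compared as log2 ratios after 1 was added, and a gene was called past the limit above 2-fold. With 1 library per condition, no test was made. Calculations used Python 3.11.15, numpy 2.4.6, and pandas 2.3.3 and were checked on simulated data. Promoter windows came from RefSeq (GRCr8).

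The comparison and the 47 gene and marker lists were chosen with earlier results of these data known. Genes were named by rule: the largest differences and the most abundant genes in each direction, the largest after subtraction of the control difference, the most abundant and most different members of each list with members past the limit where there were 8 or fewer, the genes the study measured by qPCR, and the largest differences whose sign was opposite in the controls. *Ctrb1*, *Prss1*, *Pnlip*, *Tfr2*, *Hjv*, *Bmp6*, *Id1*, *Tank*, *Psph*, *Asns*, *Slc3a2*, *Slc7a1*, *Slc7a5*, *Aldh18a1*, *Cars*, *Atf4*, *Sesn2*, *Ppp1r15a*, *Pycr1*, *Inhbe*, *Tsku*, *Rbm3*, *Cyp2b2*, *Abcg5*, *Ciita*, *Clec4f*, *Ifit2*, *Cyp2c11*, and *Nr1d2* were outside the rule and were named after their values were seen. The text gives values for part of the genes past the limit and counts for all of them, and 1 gene that the rule names is not reported here. The alternatives varied the added value, the TPM limit, the fold limit, the scaling, the handling of annotated spans, and the length and coverage filters, and used FPKM or coverage in place of TPM.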

Additional observations from a re-analysis of the deposited data

Results flagged for a closer look

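In some of the 220 genes past the 2-fold limit after 6 hours, the controls differed past the limit in the opposite direction. Whether the 2 differences of a gene differ from each other was not tested, since each rests on 2 libraries. The log2 differences after 6 hours that were positive were 3.17 for *Upp2*, 2.82 for *Adh6*, 2.07 for *Mmd2*, 1.90 for *Cdh17*, and 1.69 for *RGD1307603*. They were 1.52 for *Egr1*, 1.46 for *Abcg8*, 1.44 for *Cpb1*, 1.15 for *Hykk*, 1.06 for *Snrpg*, and 1.03 for *Hells*. Negative differences were found for *Fgf21* (-2.26), *Wfdc21* (-1.85), *Rn18s* (-1.80), *Pde4d* (-1.79), *Ptprn* (-1.63), and *Rn45s* (-1.42). They were also found for *Dusp1* (-1.34), *Rn28s* (-1.33), *Akr1b8* (-1.32), *Cyp4a2* (-1.28), and *Asrgl1* (-1.05).

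The widest contrast was that of *Adh6*, with the sevoflurane control at 162 TPM and the other libraries at between 1.17 and 14.3 TPM. *Wfdc21* followed, with TPM values of 25.9 with sevoflurane, 6.43 with desflurane, and 3.17 and 107 in the respective controls. After subtraction of the control difference, the values were 6.94 for *Adh6* and -6.55 for *Wfdc21*. The 3 ribosomal RNA genes are parts of a single locus, *Cpb1* is a pancreatic enzyme that was highest in the sevoflurane control (5.91 TPM), and *Pde4d* changed sign when coverage was used (0.35).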

How the results depend on the processing

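The counts of genes higher and lower with desflurane (143 and 77) and of those beyond the control difference (106 and 56) were recalculated under 14 alternatives and 3 more that were added after seeing the data, namely coverage in place of TPM and removal of the protocadherin alpha genes or of genes with several annotated spans. The count of higher genes was 257 with 0.1 added, 271 with nothing added, 95 with TPM above 5, 87 with TPM above 2 in both libraries, and 38 with FPKM. Beyond the control difference it was 193, 204, 70, 63, and 30, and with TPM above 2 in both libraries 37 genes were lower. A 1.5-fold limit gave 644 higher and 286 lower genes, with 488 and 210 beyond the control difference, and a 3-fold limit gave 34 and 23, with 26 and 20. The other 49 recalculated counts were within 1.5 times of the values reported. With FPKM, the medians of fasting (-0.024), PPARA (-0.0212), glucocorticoid (-0.0427), interferon (-0.0532), hepatocyte (-0.07), and periportal genes (-0.0521) changed sign, as did pericentral genes without the TPM limit (-0.0823). The difference of *Pde4d* changed sign with coverage (0.35). Of 100 named genes past the limit, 92 stayed past it with median-of-ratios scaling and 70 with FPKM, and no other of these 100 genes changed sign under the alternatives run on named genes (added value of 0.1, scaling, removal of ribosomal RNA genes, FPKM, and coverage). Apart from these alternatives' own construction, the cause was not tested. The limit of 2 and the added 1 were kept for FPKM, whose lower values make both stricter. No paired analysis was possible because each condition had 1 library, and no replicate could be left out. Genes with TPM values near 1 were the most dependent on the added value, and read counts behind the values are unknown.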

Other observations

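Among markers of liver cell types other than immune cells, all 15 endothelial markers were higher with desflurane (58.6% of all tested genes were) and none was past the limit. Their median was 0.20 (-0.04 between the controls) and fell to 0.04 with FPKM. In 13, the desflurane library was the highest of the 4 libraries, as in 38.9% of all tested genes. The 15 stellate cell and fibroblast markers had a median of 0.06, with *Rgs5*, a pericyte gene, at 7.399 TPM with sevoflurane and 14.3 TPM with desflurane. All 4 cholangiocyte markers tested were lower with desflurane, at a median of -0.26, with the lowest value of the 4 libraries in each. The 12 pericentral and 12 periportal hepatocyte markers had medians of 0.11 and 0.15. *Oat*, a pericentral enzyme of ornithine metabolism, was at 181 and 106 TPM, and *Bhmt*, which remethylates homocysteine, was at 3085 and 4019 TPM with both controls at less than those values (1239 and 1099 TPM).

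Of 22 genes induced by glucocorticoids, *Angptl4* and *Dusp1* were past the limit in opposite directions, and the median was 0.16. *Lcn2*, which encodes an iron-binding protein of the acute phase, was at 12.7 and 5.92 TPM after 6 hours and at 3.44 and 18.5 TPM in the controls. *Ahr*, the receptor for aryl hydrocarbons, was at 36.6 TPM with sevoflurane and 73.9 TPM with desflurane, and its controls were at 33.1 and 33.6 TPM. *Blk*, a kinase of B cells, was past the limit at 0.585 and 2.20 TPM, and *Cd22* was the other of 10 B cell markers above the TPM limit.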
